A study of Bos taurus with 6 samples.

Results

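Blastocysts secrete signals of the WNT and BMP families, and 6 such genes were followed here by their gene names: WNT11, DKK3, RSPO3, BMP2, BMP4 and DKK1. Of these, 5 had a row among the 9537 genes of the deposited table, and DKK1 was not analysed here. The genes were chosen by their CPM in low against high cryosurvival libraries, the same contrast that is described here, so their group values are a description and support nothing further. The samples were blastocysts produced in vitro from cattle (Bos taurus) in SOFaaci, a standard medium for bovine embryos. One group had low and the other high cryosurvival, that is, survival after vitrification, with 3 RNA-sequencing libraries each. The titles also carry the codes NV for every low and V for every high library, which the labels do not explain. The labels give neither the number of embryos per library nor the time of RNA collection relative to vitrification. They also do not state that replicates are separate cultures, so p-values measure only the spread between these 6 libraries, part of which may be technical.

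WNT proteins bind Frizzled receptors at the cell surface, and in the canonical branch the co-receptors LRP5 and LRP6 as well, after which beta-catenin is spared from degradation and acts with TCF and LEF factors in the nucleus. R-spondins such as RSPO3 bind LGR receptors and remove the ligases RNF43 and ZNRF3, which would otherwise clear Frizzled from the membrane. DKK1 blocks LRP5 and LRP6, and DKK3 is a divergent relative whose action on WNT signalling varies with the cell type. BMP2 and BMP4 are closely related ligands of the TGF-beta superfamily that signal through type I and type II receptor kinases to SMAD1, SMAD5 and SMAD9, with ID genes among the common targets. In the mammalian blastocyst these signals pass between the trophectoderm, the epiblast and the hypoblast.

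Of the 5 measured genes, WNT11, DKK3, RSPO3 and BMP2 had every low cryosurvival library above every high cryosurvival library, and BMP4 had a lower mean in low with overlapping groups. Over all genes, low lay wholly above high in 10.4% and wholly below in 10.6%. The ratio of the group means, low over high, was 3.02 for WNT11, 2.25 for DKK3, 2.01 for RSPO3, 1.53 for BMP2 and 0.778 for BMP4. All values are in CPM, read counts that the authors scaled to a common library size. They are not divided by transcript length, so they compare libraries within a gene and not the genes with each other. In such bulk libraries fewer cells of a type and less RNA per cell cannot be told apart.

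WNT11, a ligand best known for signalling without beta-catenin in cell movement, was at 2.20, 1.65 and 1.47 CPM in low cryosurvival libraries 1, 2 and 3, against 0.504, 0.367 and 0.887 CPM in high cryosurvival libraries 1, 2 and 3. The lowest of the low libraries was still above the highest of the high ones. The means were 1.77 ± 0.380 CPM in low and 0.586 ± 0.270 CPM in high (SD, n = 3 each). The difference in log2(CPM + 1), low minus high, was 0.81 with an SE of 0.17. It is called the log2 difference below, and at low CPM the added 1 makes it smaller than a log2 fold. These levels rest on few reads, 44, 22 and 28 in the low libraries and 9, 7 and 16 in the high ones. The exact Poisson 95% interval, which covers counting error only, ran from 0.974 to 2.12 CPM in low library 3 and from 0.507 to 1.44 CPM in high library 3, so these nearest libraries overlapped within counting error.

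DKK3 was at 1.997, 1.73 and 2.20 CPM in low libraries 1 to 3, against 0.952, 0.734 and 0.943 CPM in high libraries 1 to 3. Its libraries lay close together within each group and apart between the groups. DKK3 averaged 1.97 ± 0.237 CPM in low libraries and 0.876 ± 0.123 CPM in high libraries (SD, n = 3 each), a log2 difference of 0.66 with an SE of 0.13. The reads behind it numbered 40, 23 and 42 in low and 17, 14 and 17 in high. The coefficient of variation between libraries was 11.99% in low and 14.1% in high, below the 17.2% and 25.01% that counting that many reads gives on average.

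RSPO3, the R-spondin that strengthens the response to WNT ligands, was at 8.24, 13.4 and 10.5 CPM in low libraries 1 to 3, against 5.27, 4.46 and 6.27 CPM in high libraries 1 to 3. Low library 2 was the highest of all and low library 1 came nearest to the high group. RSPO3 averaged 10.7 ± 2.61 CPM in low libraries and 5.33 ± 0.907 CPM in high libraries (SD, n = 3 each), a log2 difference of 0.88 with an SE of 0.20. With 165, 179 and 201 reads in low and 94, 85 and 113 in high, counting alone would give a coefficient of variation of 7.55% in low and 10.1% in high. Between libraries it was 24.3% in low and 17.0% in high, above the counting error in both groups.

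BMP2, a ligand also known from hypoblast and bone formation, was at 5.99, 5.03 and 6.07 CPM in low libraries 1 to 3, against 4.09, 3.36 and 3.72 CPM in high libraries 1 to 3. The gap between low library 2 and high library 1, the nearest pair, was small beside their counting intervals of 3.90 to 6.39 and 3.21 to 5.14 CPM. The means were 5.70 ± 0.579 CPM in low and 3.72 ± 0.367 CPM in high (SD, n = 3 each), with a log2 difference of 0.50 and an SE of 0.13. Its reads were 120, 67 and 116 in low and 73, 64 and 67 in high. The spread between libraries, 10.2% in low and 9.86% in high, was close to the 10.1% and 12.1% from counting.

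BMP4, the ligand used to drive stem cells towards trophoblast in culture, was at 4.39, 4.36 and 6.96 CPM in low libraries 1 to 3, against 7.34, 5.77 and 7.10 CPM in high libraries 1 to 3. Low libraries 1 and 2 were below every high library, and low library 3 lay within the high group. The means were 5.24 ± 1.49 CPM in low and 6.74 ± 0.846 CPM in high (SD, n = 3 each), a log2 difference of -0.33 with an SE of 0.19. BMP4 had 88, 58 and 133 reads in low and 131, 110 and 128 in high, and its spread in low, 28.5%, was above the 10.5% from counting.

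**Figure D1:**
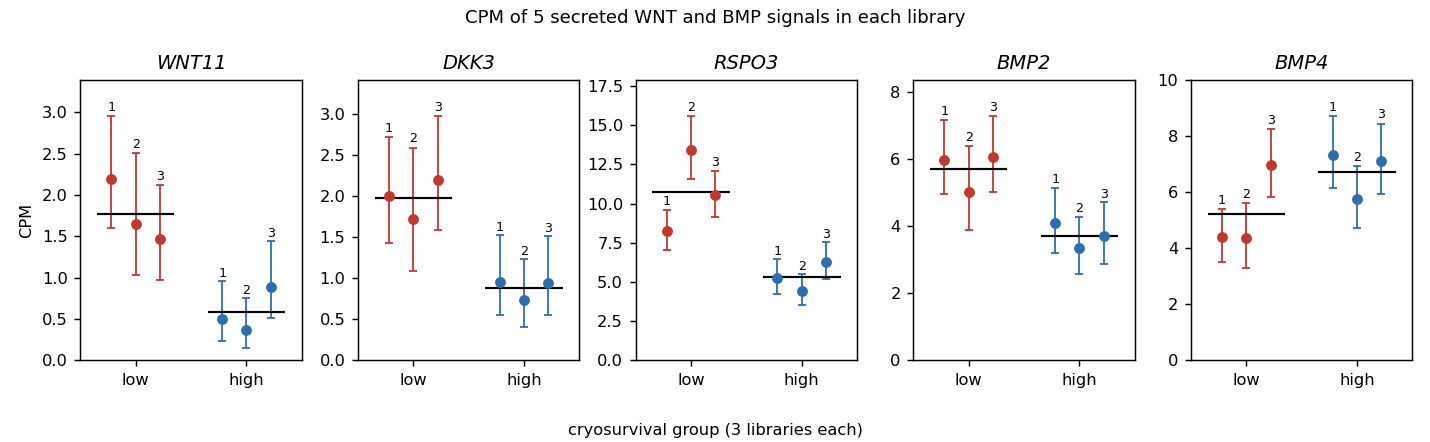
CPM of WNT11, DKK3, RSPO3, BMP2 and BMP4, one panel each, with low cryosurvival libraries (red) left of high cryosurvival libraries (blue). Points are libraries with their replicate number, bars are exact Poisson 95% intervals for counting error, and the black line is the group mean. The low libraries lie above the high ones for the first 4 genes, and low library 3 lies among the high libraries for BMP4.

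The libraries of a group did not rank alike for these genes. Low library 2 was the highest low library for RSPO3 and the lowest for DKK3, BMP2 and BMP4. High library 2 was the lowest high library for all 5 genes, as it was for 33.7% of all genes. The CPM of BMP2 divided by that of BMP4, a quotient that can be compared between libraries although not read as relative abundance, was 1.36, 1.16 and 0.872 in low libraries 1 to 3, against 0.557, 0.582 and 0.524 in high libraries 1 to 3. Every low library was thus above every high one, including low library 3, in which BMP4 itself was as high as in the high group. BMP2 alone already separated the groups, and both genes were chosen by this contrast, so the quotient is a description and supports nothing further. Quotients of other gene pairs were not examined.

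**Figure D2:**
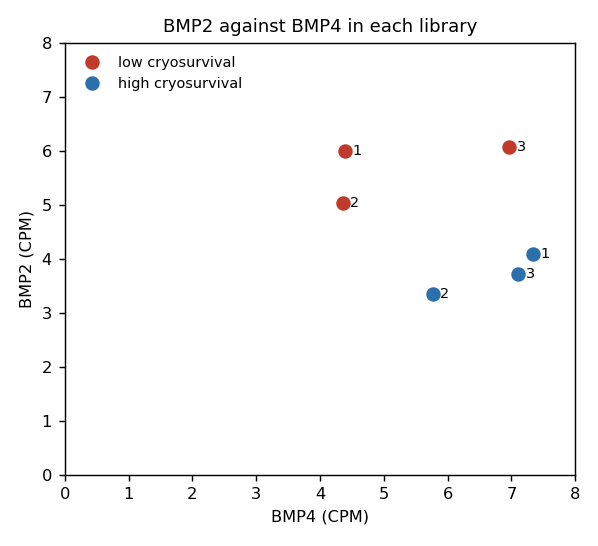
CPM of BMP2 (vertical) against BMP4 (horizontal) in each library, with the replicate number beside each point and low cryosurvival in red, high in blue. The 3 low libraries lie above the high ones on the BMP2 axis, and low library 3 shares the BMP4 range of the high libraries.

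Limma on log2(CPM + 1), fitted to all 9537 genes with Benjamini-Hochberg adjustment, called 0 of the 5 genes at an adjusted p of 0.05, and 0% of all genes. The adjusted p values ran from 0.153 for DKK3 to 0.603 for BMP4, and the unadjusted p was below 0.05 for 4 of the 5 genes and for 12% of all genes. Voom with limma on reads recovered from the CPM values also called 0. In the authors' deposited table WNT11 was the only one of the 5 with an adjusted p below 0.05, at 0.04, where 1.2% of all genes were called and 0.912% higher in low. The authors' deposited table gave WNT11 a log2 fold of 1.59, turned here to low over high. That is another measure than the difference in log2(CPM + 1), which was 0.81 for WNT11. The deposited adjusted p values were 0.062 for RSPO3, 0.106 for DKK3, 0.485 for BMP2 and 0.912 for BMP4. An exact permutation test of 3 against 3 libraries cannot give a p below 0.1, and none was made.

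Low cryosurvival library 2 stood apart from the other libraries. The median absolute distance of its genes to the mean of the other libraries of its group was 0.416 on the log2 scale, against 0.210 and 0.259 in the other low libraries and 0.0934 to 0.140 in the high ones. It also had the fewest reads, 14651477, against 17591314 to 19467022 in the others. Without it limma called WNT11, DKK3, RSPO3 and BMP2, with adjusted p values of 0.0331, 0.0164, 0.0352 and 0.0228, where 13.6% of all genes were called, 8.15% higher and 5.48% lower in low. The log2 differences without it were 0.84, 0.72, 0.71 and 0.58 in that order, and -0.23 for BMP4 (adjusted p = 0.397). With any other single library left out limma called 0 genes. The adjusted p values of WNT11, DKK3, RSPO3 and BMP2 then ran from 0.2925 (RSPO3 without low library 1) to 0.6325 (BMP2 without high library 1). Each gene kept its sign whichever library was left out.

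**Figure D3:**
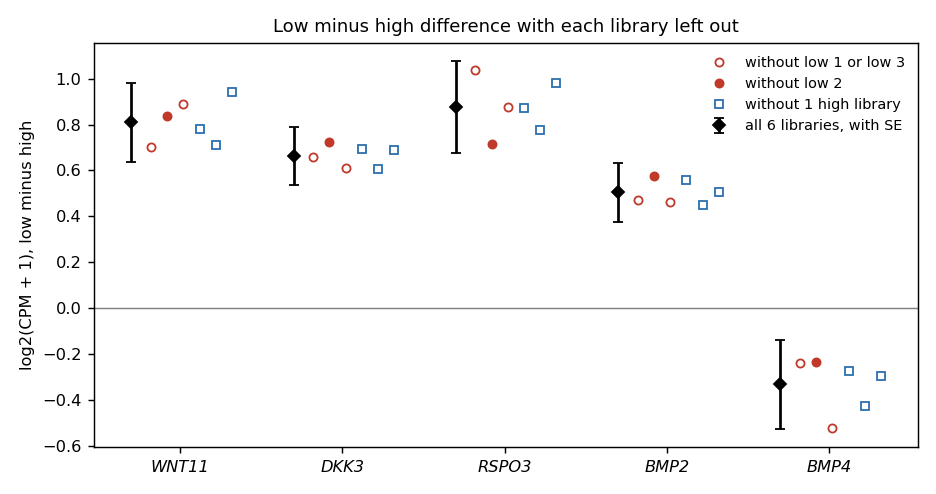
Difference in log2(CPM + 1), low minus high cryosurvival, for each gene. Black diamonds use all 6 libraries with their SE, red circles leave out a low library (filled for low library 2) and blue squares leave out a high library. The first 4 genes stay above 0 and BMP4 stays below 0 in all of them.

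The rest of both pathways was read from lists of ligands, secreted modulators, receptors, intracellular components and feedback targets, of which 76 genes beside the 5 above had a row. Limma called 0 of the 76 at an adjusted p of 0.05, and voom called 0. The unadjusted p by limma was below 0.05 for 19 of the 76, and for 1142 of all 9537 genes (12%). The smallest adjusted p was 0.175. Among the 76, the low libraries lay wholly above the high ones for 12 genes (15.8%, against 10.4% of all genes) and wholly below for 10 (13.2%, against 10.6% of all genes), and the other 54 overlapped. The median log2 difference was 0.05, against 0.00023 over all genes, with 45 genes higher and 31 lower in low. Without low library 2 limma called 15 of the 76 higher and 7 lower in low. Over all 9537 genes it called 777 higher (8.15%) and 523 lower (5.48%). The lists were chosen with earlier results of these data known. In each list below, the genes with the highest and lowest difference were named for that difference. Gaps between their groups follow in part from that choice and are to be read beside the shares over all genes given here.

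**Figure D4:**
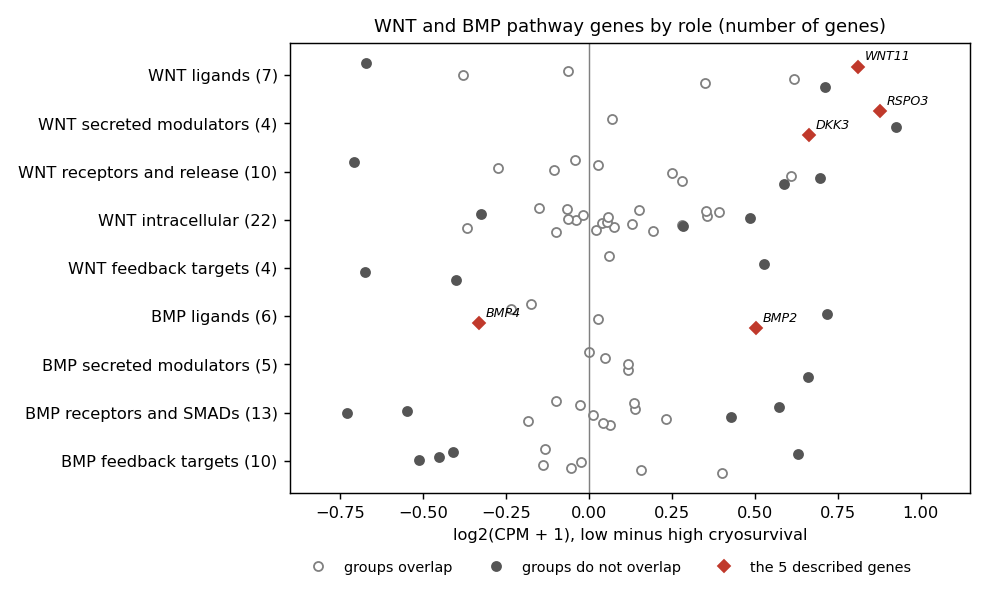
Difference in log2(CPM + 1), low minus high cryosurvival, of the measured WNT and BMP pathway genes, a row per list with its number of genes. Red diamonds are the 5 genes described above, filled grey circles are other genes whose groups do not overlap, and open circles are genes whose groups overlap. Differences run from -0.73 (ACVRL1) to 0.93 (DKKL1), on both sides of 0 in most lists.

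Of the WNT ligands 7 of 19 listed had a row, and 4 were higher and 3 lower in low, with a median log2 difference of 0.35. WNT11, chosen by this contrast, was among the 7, and without it the median was 0.14. WNT2B was at 11.6, 7.21 and 9.06 CPM in low libraries 1 to 3, against 5.21, 6.14 and 4.33 CPM in high libraries 1 to 3. WNT16 went the other way, at 1.75, 0.976 and 0.785 CPM in low and 2.86, 2.46 and 1.94 CPM in high. Neither set of libraries overlapped, and the log2 differences were 0.71 for WNT2B and -0.67 for WNT16 (limma adjusted p = 0.238 and 0.26). They were named as the highest and lowest difference of the list, WNT11 aside, so this separation follows in part from the choice. WNT6 averaged 179.9 ± 38.0 CPM in low and 231.1 ± 10.0 CPM in high with overlapping libraries, and WNT5B averaged 5.64 ± 3.14 CPM in low and 3.06 ± 0.642 CPM in high (SD, n = 3 each). The WNT5B mean in low rested on library 2, at 9.16 CPM, and the log2 difference of 0.62 was 0.26 without it.

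Secreted modulators of WNT had a row for 4 of 22 listed genes, DKK3 and RSPO3 among them. All 4 were higher in low with a median log2 difference of 0.77, though SFRP1 by only 0.07. DKK3 and RSPO3 were chosen by this contrast, and the median without them, over DKKL1 and SFRP1 only, was 0.50. DKKL1, a relative of the DKK proteins known from sperm and testis, was at 13.8, 32.5 and 14.8 CPM in low libraries 1 to 3, against 9.92, 8.495 and 10.0 CPM in high libraries 1 to 3. Its groups did not overlap, but low library 2 was far above the rest, and the log2 difference of 0.93 was 0.55 without it. SFRP1, a Frizzled-related protein that binds WNT ligands outside the cell, averaged 2.06 ± 0.696 CPM in low and 1.87 ± 0.200 CPM in high, with overlapping libraries, and its log2 difference was -0.11 without low library 2.

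Genes for WNT release and reception had a row for 10 of 25 listed, 6 higher and 4 lower in low, with a median log2 difference of 0.14. PORCN, the acyltransferase that attaches the lipid needed for WNT secretion, was at 35.5, 37.0 and 37.4 CPM in low libraries 1 to 3, against 53.9, 53.1 and 77.4 CPM in high libraries 1 to 3. The low libraries were nearly equal and all below the high ones, a log2 difference of -0.71 with an SE of 0.17 (limma adjusted p = 0.198). WLS, which carries WNT proteins to the cell surface, averaged 37.6 ± 3.48 CPM in low and 38.6 ± 1.56 CPM in high, and PTK7, a pseudokinase co-receptor, 155.6 ± 5.58 CPM in low and 168 ± 16.6 CPM in high, both with overlap. The receptor FZD4 was at 22.1, 15.7 and 24.6 CPM in low and 11.0, 12.1 and 13.7 CPM in high, without overlap (log2 difference 0.70, SE 0.19, limma adjusted p = 0.233).

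Inside the cell, 22 of 29 listed WNT components had a row, 14 higher and 8 lower in low, with a median log2 difference of 0.06. CTNNB1, which encodes beta-catenin, averaged 433.8 ± 57.7 CPM in low and 394.8 ± 23.4 CPM in high, and the corepressor TLE3 290.5 ± 24.0 CPM in low and 294.2 ± 23.4 CPM in high. CSNK1A1, a kinase of the beta-catenin destruction complex, averaged 183.9 ± 56.0 CPM in low and 146.9 ± 20.7 CPM in high (SD, n = 3 each). BCL9L, a co-activator bound to beta-catenin, was at 116.2, 105.7 and 89.8 CPM in low and 70.9, 81.1 and 69.3 CPM in high, without overlap and with a log2 difference of 0.48 (limma adjusted p = 0.263). APC, the scaffold of the destruction complex, was at 87.6, 37.7 and 71.9 CPM in low and 79.6, 76.7 and 85.0 CPM in high. Its log2 difference of -0.37 was -0.02 without low library 2, and that of CSNK1A1 was 0.28 with and 0.56 without that library.

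The WNT feedback targets, genes that canonical signalling is known to induce, had a row for 4 of 12 listed. NKD1, an inhibitor of the pathway, was at 4.39, 2.48 and 3.46 CPM in low libraries 1 to 3, against 5.88, 6.14 and 5.94 CPM in high libraries 1 to 3. AXIN2, another inhibitor and a common readout of beta-catenin activity, was at 57.6, 34.0 and 56.8 CPM in low and 65.7, 66.8 and 59.4 CPM in high. Both were lower in each low library than in any high one, with log2 differences of -0.68 (SE 0.18) for NKD1 and -0.40 (SE 0.22) for AXIN2 (limma adjusted p = 0.22 and 0.569). The AXIN2 difference was -0.16 without low library 2. CCND1, which encodes cyclin D1, was at 4.39, 3.98 and 3.72 CPM in low and 2.46, 2.99 and 2.05 CPM in high, above it in every library (log2 difference 0.53, limma adjusted p = 0.232). MYC averaged 40.6 ± 9.34 CPM in low and 38.4 ± 4.58 CPM in high, with overlap. Of the 4 targets 2 thus lay wholly below and 1 wholly above, against 10.6% and 10.4% of all genes. NKD1 and CCND1 had the lowest and highest difference of the list and were named for it as well.

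Beside BMP2 and BMP4, another 4 of the listed TGF-beta superfamily ligands had a row, namely BMP7, GDF15, INHBA and INHBB. Thus 6 of 20 listed genes were measured, 3 higher and 3 lower in low, with a median log2 difference of -0.07. The median was also -0.07 without BMP2 and BMP4, which were chosen by this contrast. BMP7, named after its values were seen, averaged 1.40 ± 0.659 CPM in low and 1.31 ± 0.175 CPM in high, with overlap (log2 difference 0.03). GDF15, a ligand induced by cell stress, was at 1.498, 3.15 and 1.57 CPM in low libraries 1 to 3, against 0.896, 0.839 and 0.721 CPM in high libraries 1 to 3, without overlap (log2 difference 0.72, limma adjusted p = 0.262). The activin subunit genes INHBA and INHBB averaged 2.56 ± 1.37 and 1.85 ± 0.733 CPM in low, against 3.01 ± 0.302 and 2.18 ± 0.591 CPM in high, and both overlapped. For INHBA the log2 difference of -0.24 was -0.53 without low library 2.

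Secreted BMP modulators and processing enzymes had a row for 5 of 17 listed, all 5 higher in low by a median of 0.12 on the log2 scale, though PCSK7 by only 0.00023, a sign that turned without low library 1 or 3 or high library 1 or 3. FSTL1, a secreted glycoprotein that can bind BMP ligands, was at 8.74, 7.96 and 9.32 CPM in low libraries 1 to 3, against 4.26, 5.56 and 5.60 CPM in high libraries 1 to 3. Its groups did not overlap and its log2 difference was 0.66 with an SE of 0.14 (limma adjusted p = 0.175). FURIN, a protease that cleaves BMP precursors, ranged from 149.2 to 422.0 CPM in low and from 189.0 to 348.0 CPM in high, wider within than between the groups. PCSK7, a related protease, averaged 76.4 ± 13.9 CPM in low and 75.6 ± 3.77 CPM in high, and FSTL3, an activin antagonist, 13.1 ± 2.14 CPM in low and 11.9 ± 0.637 CPM in high.

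Receptors and SMADs of the BMP branch had a row for 13 of 20 listed, 8 higher and 5 lower in low, with a median log2 difference of 0.04. SMAD5 was at 9.09, 8.19 and 7.38 CPM in low libraries 1 to 3, against 4.93, 6.03 and 4.66 CPM in high libraries 1 to 3, while ACVRL1, a type I receptor best known in endothelium, was at 0.749, 0.976 and 0.628 CPM in low and 1.79, 1.36 and 2.88 CPM in high. Neither overlapped, and the log2 differences were 0.57 for SMAD5 and -0.73 for ACVRL1 (limma adjusted p = 0.204 and 0.241). SMAD1 averaged 86.6 ± 7.43 CPM in low and 78.4 ± 1.198 CPM in high, SMAD4, the shared partner SMAD, 72.3 ± 8.95 CPM in low and 73.4 ± 2.58 CPM in high, and the type II receptor ACVR2B 52.3 ± 7.08 CPM in low and 52.2 ± 10.0 CPM in high, all with overlap.

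BMP feedback targets had a row for 10 of 13 listed, 3 higher and 7 lower in low, with a median log2 difference of -0.09. MSX1 and MSX2 are homeobox genes induced by BMP in many embryonic tissues. MSX1 was at 12.4, 8.34 and 11.99 CPM in low libraries 1 to 3, against 16.5, 16.8 and 14.1 CPM in high libraries 1 to 3. MSX2 was at 137.8, 98.8 and 146.4 CPM in low and 159.5, 175.0 and 184.1 CPM in high. Every low library was below every high one for both, with log2 differences of -0.51 and -0.45 (limma adjusted p = 0.322 and 0.377), and of -0.35 and -0.28 without low library 2. GATA2, also a trophectoderm factor, averaged 698.6 ± 42.2 CPM in low and 929.2 ± 61.8 CPM in high without overlap, and GATA3 169.5 ± 14.7 CPM in low and 186.2 ± 19.3 CPM in high with overlap. HEY1, a Notch and BMP target, was at 4.09, 3.23 and 5.13 CPM in low and 2.97, 2.52 and 1.55 CPM in high, without overlap. ID1, named after its value was seen, was at 4.74, 11.6 and 5.34 CPM in low and 4.87, 4.51 and 5.16 CPM in high, where low library 2 alone stood out. The inhibitors SMAD6, SMAD7 and BAMBI, also named after their values were seen, overlapped, with log2 differences of -0.05, -0.14 and -0.02. ID2, named likewise, overlapped as well, with a log2 difference of 0.16. Of the 10 targets 3 thus lay wholly below and 1 wholly above, against 10.6% and 10.4% of all genes.

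**Figure D5:**
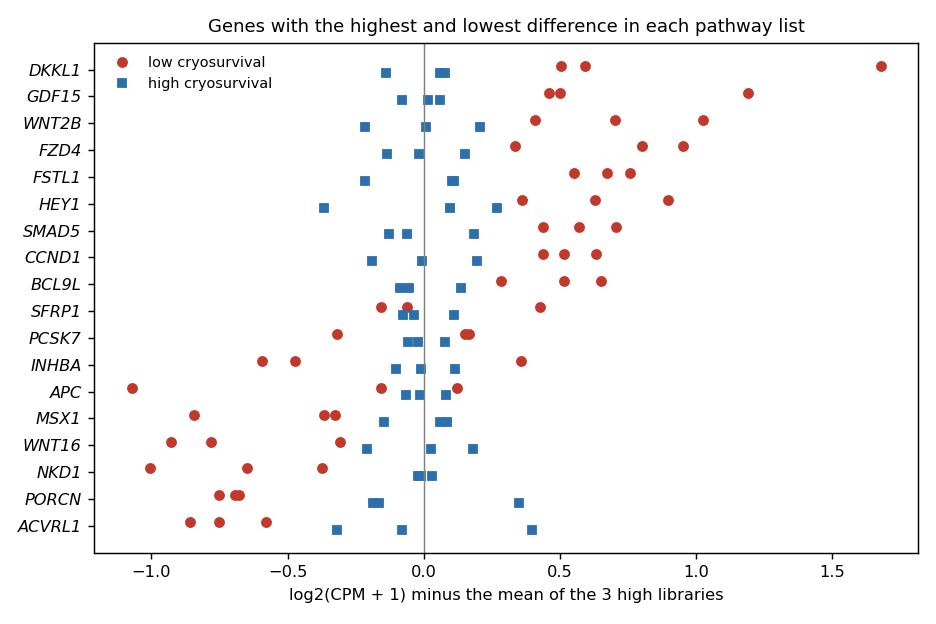
log2(CPM + 1) in each library minus the mean of the 3 high cryosurvival libraries, for the genes with the highest and the lowest difference in each pathway list, the 5 described genes aside. Red circles are low and blue squares high cryosurvival libraries. WNT16, NKD1, PORCN, ACVRL1 and MSX1 have every low library below the high ones. SMAD5, FSTL1, FZD4, WNT2B, DKKL1, BCL9L, CCND1, GDF15 and HEY1 have every low library above, and the groups of the other genes overlap.

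Markers of the blastocyst lineages and of other cells were read beside these genes. The summed level of the 11 of 18 hypoblast markers with a row was 4183, 2502 and 4341 CPM in low libraries 1 to 3, against 3964, 3286 and 3237 CPM in high libraries 1 to 3. Low libraries 1 and 3 were above every high library and low library 2 was below them all. GATA4, an early hypoblast factor, was at 12.3, 10.7 and 10.3 CPM in low libraries 1 to 3, against 9.64, 7.66 and 6.16 CPM in high libraries 1 to 3, and SOX17 at 5.89, 7.36 and 5.03 CPM in low and 4.71, 5.51 and 2.33 CPM in high. PDGFRA, a receptor of the same lineage, averaged 54.2 ± 14.4 CPM in low and 63.3 ± 8.01 CPM in high. HNF4A, named after its values were seen, was at 65.95, 43.3 and 50.3 CPM in low and 84.9, 66.07 and 67.4 CPM in high. GATA4 had every low library above every high one (log2 difference 0.47, limma adjusted p = 0.355). HNF4A had every low library below (log2 difference -0.46, limma adjusted p = 0.415). Of the 11 markers, 1 thus lay wholly above and 1 wholly below, against 10.4% and 10.6% of all genes. Over the 11 markers 7 were higher and 4 lower in low, and limma called 0 with all 6 libraries. Without low library 2 limma called 3 of the 11 higher in low and 0 lower, where it called 8.15% of all genes higher. These 3, named after their values were seen, were the basement membrane genes LAMB1, COL4A1 and LAMC1, with log2 differences of 0.91, 0.88 and 0.53 (limma adjusted p = 0.0113, 0.0203 and 0.0313). The part of the hypoblast markers in the differences of the 5 signals, RSPO3 and BMP2 among them, was not tested. FN1 and SPARC, the markers of this list with the most reads, averaged 2079 ± 728 and 637.7 ± 156.6 CPM in low, against 2173 ± 328 and 584.4 ± 40.9 CPM in high.

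The 11 of 15 trophectoderm markers summed to 28230 to 39060 CPM in low and 32900 to 36520 CPM in high, with KRT8 at 15390 to 21790 CPM in low and 17590 to 19420 CPM in high. KRT8 and KRT18 make up most of this sum, so it says little of the other markers. Of the 11, 3 were higher and 8 lower in low. GATA2, TFAP2A, TFAP2C and DAB2 had every low library below every high one, 4 of the 11, against 10.6% of all genes. PAG11 alone had every low library above, against 10.4% of all genes. All of these but GATA2 were named after their values were seen. The TFAP2C difference was small, at -0.12 on the log2 scale (limma adjusted p = 0.78). TFAP2A averaged 20.7 ± 5.21 CPM in low and 33.0 ± 4.38 CPM in high, and DAB2 351.6 ± 45.3 CPM in low and 480.9 ± 32.6 CPM in high (SD, n = 3 each; limma adjusted p = 0.269 and 0.276).

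The 11 of 14 inner cell mass and epiblast markers summed to 1481 to 1640 CPM in low and 1564 to 1726 CPM in high, with POU5F1 at 606.5 to 928.8 CPM in low and 687.0 to 762.7 CPM in high. Of the 11, 5 were higher and 6 lower in low, and limma called 0 with all 6 libraries. Without low library 2 limma called 1 higher and 3 lower in low, where it called 8.15% of all genes higher and 5.48% lower. The higher one was LIN28A (log2 difference 0.96). The lower ones were NANOG, LEFTY2 and DPPA3 (log2 differences -1.06, -1.53 and -0.69). LIN28A and DPPA3 were also named after their values were seen. NANOG and LEFTY2, named after their values were seen, were the 2 markers of this list with an adjusted p below 0.05 in the authors' deposited table, at 0.002 and 0.008, where 0.283% of all genes were called lower in low. NANOG, a core factor of the epiblast, was at 22.1, 12.2 and 14.35 CPM in low libraries 1 to 3, against 47.3, 31.15 and 37.6 CPM in high libraries 1 to 3. LEFTY2, a secreted inhibitor of NODAL, was at 1.80, 4.13 and 2.46 CPM in low and 10.9, 6.135 and 7.49 CPM in high. Every low library was below every high one for both, with log2 differences of -1.23 and -1.29 (limma adjusted p = 0.164 and 0.176), and their part in the differences of the 5 signals was not tested.

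Cumulus and granulosa genes, 5 of 11, summed to 394.2 to 540.7 CPM in low and 418.2 to 544.2 CPM in high, and fibroblast and stroma genes, 8 of 11, to 121.2 to 205.2 CPM in low and 136.8 to 163.3 CPM in high. The 2 of 4 oviduct and epithelium genes summed to 41.5 to 65.0 CPM in low and 32.2 to 42.9 CPM in high, the 1 of 5 sperm genes to 1.152 to 2.85 CPM in low and 1.63 to 3.08 CPM in high, and the 2 of 6 blood and immune genes to 5.56 to 9.19 CPM in low and 9.54 to 12.2 CPM in high. No measured marker was at 0 in any library. The sums overlapped for all of these lists but the blood and immune genes, although for the hypoblast and the fibroblast and stroma lists low libraries 1 and 3 were above every high library and low library 2 alone was below. Overlap of a sum says nothing of single markers, and the part of these lists in the differences of the 5 signals was not tested.

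The genes whose pattern over the 6 libraries was most like that of each signal were found by Pearson's r of log2(CPM + 1) among 7945 genes with a mean of at least 5 CPM. They were DNAJC21 and DUSP1 for WNT11 (r = 0.991 for both), GPRC5B and RIOK3 for DKK3 (r = 0.998 and 0.994), and ALDOC and BTG1 for RSPO3 (r = 0.997 and 0.995). For BMP2 they were UBAP1 and SUCLA2 (r = 0.992 and 0.991). Each of these 8 genes also had every low library above every high one, so these r values span the gap between the groups. GPRC5B, for example, was at 10.9, 8.86 and 13.1 CPM in low libraries 1 to 3, against 4.87, 3.46 and 4.55 CPM in high libraries 1 to 3. For BMP4 they were RRS1 and BCL7B (r = 0.972 and 0.971), and RRS1 was at 54.7, 56.3 and 62.0 CPM in low and 63.3, 60.9 and 63.1 CPM in high. Between 7 genes for BMP4 and 40 genes for RSPO3 had an r above 0.95, so the nearest genes are only the first among many.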

How the data were processed

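The authors' deposited table gives, per gene and library, a value with decimal commas that was read as CPM of a scaled library size, beside the log2 fold with its p-value before and after adjustment. The submitters' processing notes list DESeq 1.12.1, HTSeq 0.5.4p2, SAMtools 0.1.18, TopHat2 2.0.8, Cufflinks 2.1.1 and Bowtie2 2.1.0 but assign them no roles. Not given in the sources used here: genome build, annotation, low-value filter and strand use, so a gene and an antisense partner may share reads. RNA integrity numbers were at least 7.7, per the labels' protocols. Values up to 1000 CPM were whole multiples of a step per library, within 0.05 read, for 100% of values, and 1 read was worth 0.0499 to 0.0751 CPM. The lowest mean in the table was 0.737 CPM. Replicates were compared by chi-square of their reads, and no pair agreed within sampling noise.

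The model was fitted to log2(CPM + 1) of all 6 libraries by limma 3.58.1 (R 4.3.3) without covariates; differences are low minus high, and a pseudocount of 1 understates the change of genes at low CPM. The fit was also run on simulated data with the same dispersion in all genes, no outlying library and changes only in genes above 5 CPM. WNT11, DKK3 and BMP2 have means below that level and low library 2 stood apart, so the simulation does not speak to them. No set test was made. The genes and lists were chosen with earlier results of these data known. Named in each pathway list were the 3 genes with the highest mean CPM and those with the highest and lowest difference, and for each signal the 2 genes most alike; further genes are marked as named after their values were seen. The tables hold no sequences, so none are shown.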

Additional observations from a re-analysis of the deposited data

How the results depend on the processing

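The group differences of WNT11, DKK3, RSPO3, BMP2 and BMP4 kept their sign in all 12 alternatives: other scalings, another pseudocount, a filter of at least 1 CPM in 3 libraries, a replicate block, voom and each library left out. A pseudocount of 0.25 gave 1.31 for WNT11 and 0.98 for DKK3, and voom on the recovered reads, an alternative chosen after the data were seen, gave 1.64, 1.17 and 0.63 for WNT11, DKK3 and BMP2; a smaller pseudocount shrinks low values less by construction. With each library left out the log2 differences ranged from 0.70 to 0.94 for WNT11, 0.61 to 0.72 for DKK3, 0.71 to 1.04 for RSPO3, 0.45 to 0.58 for BMP2 and -0.52 to -0.23 for BMP4. Over all genes limma called 0, and 5 with median-of-ratios scaling, 7 with a pseudocount of 0.25 and 0 to 1300 with each library left out, the 1300 without low library 2; none of the 5 or 7 was among the described genes. Genes whose groups did not overlap numbered 2005, and 2384 to 5257 with a library left out, the 5257 again without low library 2; fewer libraries overlap less by construction. Of the 5 signals 4 to 5 did not overlap, as BMP4 separated without low library 3 or high library 2. List medians with a library left out ranged from 0.099 to 0.49 for the WNT ligands (0.099, 0.17 and 0.16 without low 1, low 3 and high 3), and were 0.54 by voom. They ranged from 0.63 to 0.85 for WNT modulators, 0.056 to 0.17 for WNT receptors, 0.014 to 0.13 for WNT components and -0.32 to 0.029 for WNT targets. For BMP the ranges were -0.12 to 0.11 for ligands, 0.062 to 0.17 for modulators, -0.077 to 0.21 for receptors and SMADs and -0.13 to -0.054 for targets. The lists of WNT ligands, WNT modulators and BMP ligands hold described genes, which were chosen by this contrast. The medians of WNT targets and BMP ligands turned positive without low library 2, and that of BMP receptors and SMADs negative without low library 1 or 3; the cause was not tested.

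The replicate numbers are shared by the labels, which do not state a pairing. The correlations of same-numbered deviations were 0.123, -0.261 and -0.312, and those of differently numbered ones ran from -0.355 to 0.374. The deviations are from group means of 3 libraries and so depend on each other, and they cannot decide whether the libraries were paired. With the replicate block limma also called 0 genes, with 797 at an unadjusted p below 0.05 against 1142 without it, and the difference of RSPO3 was 0.88 with an adjusted p of 0.502. The count tests by edgeR and DESeq2 planned at the outset were not run. WNT11 and DKK3 in high cryosurvival rest on 7 to 17 reads per library, which limits how firmly their folds can be read.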
